A study of Homo sapiens with 9 samples.

Results

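Expression profiles of MCF10A cells carrying RND1 hairpin sh-35 were compared directly with those of MCF10A cells carrying RND1 hairpin sh-34, which covered 6 of the 9 samples of the study. The groups were RND1-sh-35 (3 samples), RND1-sh-34 (3 samples) and a scramble control (3 samples), chosen by their titles. MCF10A is an immortalized, non-tumorigenic human mammary epithelial cell line. The cells of all 3 groups had been infected with a lentivirus that carried a short hairpin RNA, and infected cells had been selected with puromycin. Hairpin sequences and harvest times are not in the labels, nor is any statement that replicates came from separate cultures. The p-values therefore measure only how far these samples spread, and that spread may be technical.

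RND1 encodes a small GTPase that remains bound to GTP, loosens actin stress fibres and binds plexins, the receptors of semaphorins. A short hairpin RNA is cut by the cell into a small RNA that guides the silencing complex to matching transcripts. Hairpins of different sequence against 1 gene share that target, and a direct comparison shows where the cells that carry them differ.

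Each Illumina array held 48803 probes, of which 11473 to 12902 (23.5% to 26.4%) gave a signal above background, defined as a detection p under 0.01. A probe entered the test if it exceeded background on 3 or more of the 9 arrays, which 12866 did, and the brightest probe of each gene was kept, which left 8931 genes. All levels below are background-corrected, quantile-normalized log2 signals, and a difference of 1 on this scale is 2-fold. Across genes, which are not independent replicates, Pearson's r was 0.9925 to 0.9932 among sh-35 samples, 0.9936 to 0.9939 among sh-34 samples and 0.9654 to 0.9661 between sh-35 and sh-34 samples. The number of arrays, 3 in each group, limits the precision.

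The targeted gene could not be measured. The RND1 probe gave deposited signals of 27.7, 37.9 and 43.1 in sh-35 samples, 30.8, 39.5 and 28.1 in sh-34 samples, and 33.8, 49.6 and 34.4 in scramble samples. None of the 9 arrays was above background, where a signal had to reach 110.1 or more to count, and the lowest detection p of the probe was 0.165. The arrays therefore hold no check of how far either hairpin lowered RND1. RND2 was below background on all 9 arrays. RND3, the third member of the family, was measured and averaged −0.19 ± 0.11 (SE) in sh-35 minus sh-34, with an adjusted p of 0.194 and a 95% interval from −0.42 to 0.05. Without sh-34 replicate 2 the difference of RND3 was −0.30 and passed (adjusted p = 0.0374).

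In the limma fit, 3814 of the 8931 genes (42.7%) differed between sh-35 and sh-34 samples at a Benjamini-Hochberg adjusted p under 0.05. Of these, 1852 (20.7% of those tested) were higher and 1962 (22.0%) were lower with sh-35. Higher genes made up 48.6% of the calls, and 60.4% of the calls made from the series matrix values, which carry no normalization between arrays. The difference reached at least 2-fold for 373 genes (4.18%), 248 higher (2.78%) and 125 lower (1.40%). The 3 sh-35 and the 3 sh-34 values did not overlap for 4719 genes (52.8%). The median difference over all genes was −0.03. Just inside the threshold lay C2CD5 (+0.26) and CAPN2 (+0.31), and just outside it RO60 (−0.21) and FAHD1 (−0.19). With 1 sample left out, the adjusted p of C2CD5 rose to as much as 0.184 (without sh-34 replicate 3) and that of CAPN2 to as much as 0.197 (without sh-34 replicate 2). In the same fit, 3731 genes (41.8%) were called for sh-35 against scramble and 3347 (37.5%) for sh-34 against scramble. These contrasts share the scramble samples, so levels relative to scramble are given side by side only.

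**Figure D1:**
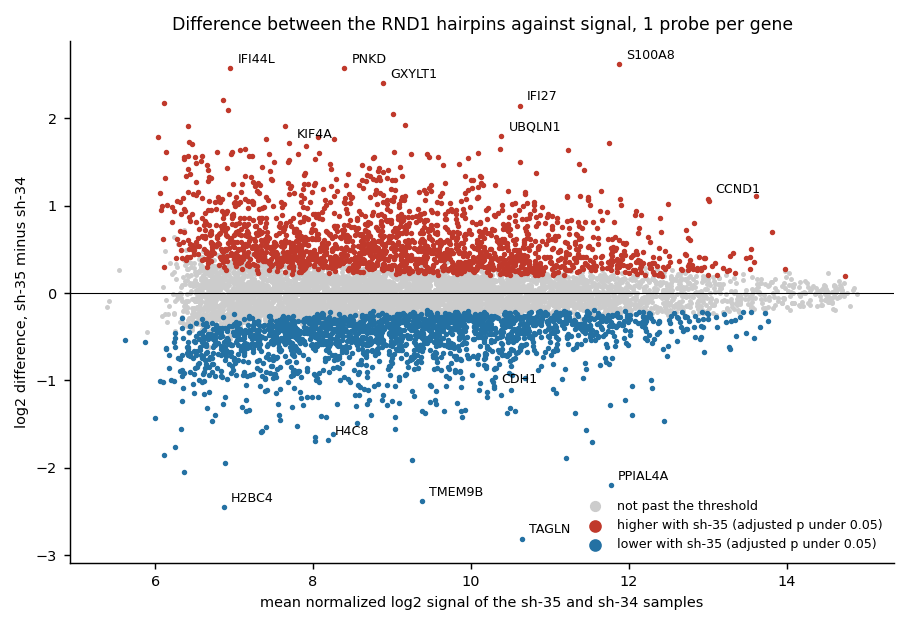
Log2 difference between sh-35 and sh-34 samples (vertical axis, sh-35 minus sh-34) against the mean normalized log2 signal of those samples (horizontal axis), 1 point per gene for 8931 genes. Red points are the 1852 genes higher and blue points the 1962 genes lower with sh-35 at an adjusted p under 0.05. S100A8 lies at +2.62 and TAGLN at −2.81.

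Among the 8931 genes, TAGLN showed the largest difference in either direction. It encodes transgelin, an actin-binding protein of contractile cells. Its log2 signal was 9.15, 9.28 and 9.27 in sh-35 samples, 12.03, 12.15 and 11.97 in sh-34 samples, and 12.47, 12.64 and 12.63 in scramble samples. The sh-35 samples lay far below both other groups, and the sh-34 samples lay just below scramble. TAGLN was 7.03-fold lower with sh-35 than with sh-34 (log2 difference −2.81 ± 0.09, limma adjusted p = 9.69e-09).

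S100A8 and S100A9 encode the 2 chains of calprotectin, a calcium-binding protein that epithelial cells release under stress, and they moved in opposite directions with the hairpins. S100A8 read 13.30, 13.15 and 13.12 in sh-35 samples, 10.58, 10.48 and 10.65 in sh-34 samples, and 12.47, 11.67 and 12.09 in scramble samples. S100A9 read 12.75, 12.71 and 12.36 in sh-35 samples, 10.93, 10.89 and 10.83 in sh-34 samples, and 12.15, 11.35 and 11.68 in scramble samples. For both genes all sh-35 samples were above, and all sh-34 samples below, every scramble sample. S100A8 was 6.14-fold higher with sh-35 than with sh-34 (adjusted p = 6.34e-07) and S100A9 3.30-fold higher (adjusted p = 1.32e-05). Of 11 tested S100 genes, these 2 were higher, S100A14 (−0.68), S100A4 (−0.35) and S100A3 (−0.26) were lower, and 6 did not pass. Over all genes 20.7% were higher and 22.0% lower. S100A3 lost its call without sh-34 replicate 1 or 3 or sh-35 replicate 2 or 3 (adjusted p 0.0571 to 0.068).

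Among the other genes above background on all 6 hairpin arrays, the largest positive differences belonged to genes of several kinds. GXYLT1, a xylosyltransferase that elongates sugars on Notch, read 10.25, 9.95 and 10.06 with sh-35, 7.73, 7.63 and 7.69 with sh-34, and 8.57, 8.41 and 8.51 with scramble. TRAK2, an adaptor that links mitochondria to kinesin, read 10.08, 9.97 and 10.07 with sh-35, 8.0, 8.0 and 7.97 with sh-34, and 9.25, 9.25 and 9.19 with scramble. Both genes were high with sh-35 and low with sh-34, with scramble between them. Their differences were +2.40 and +2.05, with adjusted p of 3.77e-08 and 2.56e-08. ACOX2, a peroxisomal oxidase of bile acid intermediates, read 9.95, 10.26 and 10.16 with sh-35, 8.24, 8.20 and 8.15 with sh-34, and 8.24, 8.53 and 8.11 with scramble. The sh-34 and scramble samples overlapped, and the difference between hairpins was +1.93. ADGRG2, an adhesion G protein-coupled receptor, followed the same order with +1.77. PRKX, a protein kinase related to protein kinase A, was +1.69, at +0.33 from scramble with sh-35 (adjusted p = 0.11) and −1.36 with sh-34.

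Some of the differences rested on 1 probe. PNKD differed by +2.57 at its brightest probe and by −0.02 at another. UBQLN1, a ubiquitin-like shuttle factor, read 11.27, 11.25 and 11.33 with sh-35, 9.49, 9.48 and 9.48 with sh-34, and 11.37, 11.29 and 11.32 with scramble at its brightest probe. That probe differed by +1.80, while the gene's remaining tested probes gave +0.28 and +0.27. ZMAT3, a p53 target, gave −1.28 and −1.19 at 2 probes and −0.08 at the third. Over all called genes there were 949 further tested probes, of which 67 had the opposite sign and 17 of those passed the threshold.

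Genes of several kinds had the largest negative differences after TAGLN. TMEM9B, a lysosomal membrane protein, read 8.41, 8.02 and 8.14 with sh-35, 10.50, 10.47 and 10.75 with sh-34, and 10.78, 10.74 and 10.77 with scramble. TPP1, a lysosomal tripeptidyl peptidase, read 8.42, 8.29 and 8.18 with sh-35, 10.21, 10.21 and 10.23 with sh-34, and 9.91, 9.97 and 10.04 with scramble. In both, the sh-35 samples stood well below the other 2 groups, by −2.38 ± 0.11 and −1.92 ± 0.08 against sh-34. PPIAL4A, a cyclophilin-like gene with near-identical relatives that the probe may not separate, differed by −2.20. HIGD2A, a mitochondrial protein of respiratory complex assembly, differed by −1.70, and PSPH, the phosphatase of serine synthesis, by −1.69. TMEM230, a membrane protein of vesicle traffic, and CD2AP, an adaptor of the actin cytoskeleton, differed by −1.89 and −1.65. ITGB2, the beta chain of leukocyte integrins, was −1.57 between the hairpins, at −1.05 from scramble with sh-35 and +0.53 with sh-34.

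**Figure D2:**
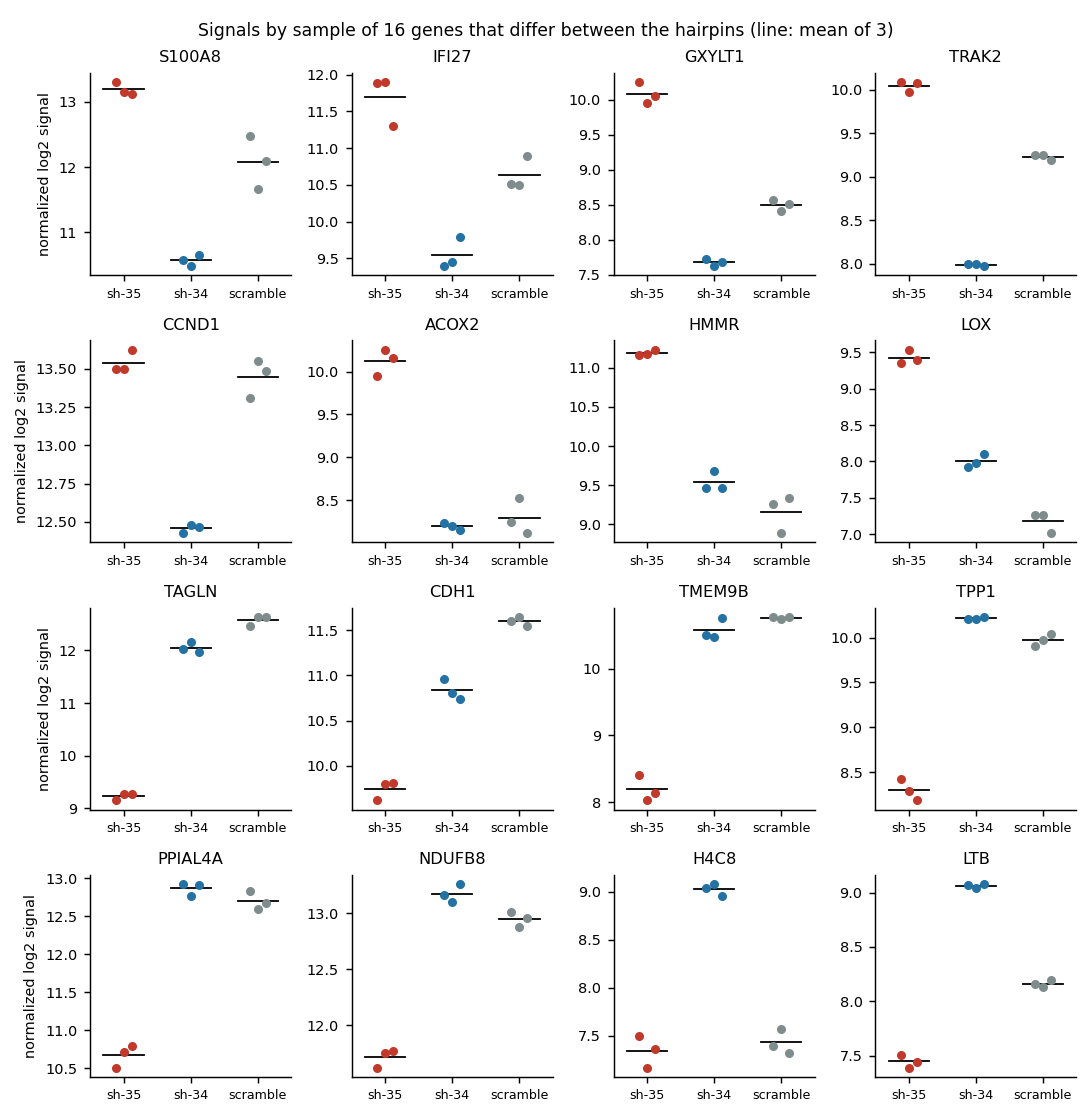
Normalized log2 signal (vertical axes, with a separate range in each panel) of 16 genes in each sample of sh-35, sh-34 and scramble (horizontal axes). Points are samples and lines the means of 3. TAGLN reads 9.15 to 9.28 with sh-35, 11.97 to 12.15 with sh-34 and 12.47 to 12.64 with scramble.

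Genes seen with 1 hairpin and not above background with the other are given as bounds. Those above background in 1 group alone passed the filter of 3 arrays only through that group. Their calls are therefore no further support, here or in the list counts below. IFI44L, an interferon-induced gene, was above background on all 3 sh-35 arrays, on no sh-34 array and on no scramble array. It was at least 3.13-fold higher with sh-35 than with sh-34. APOBEC3B, a DNA cytidine deaminase, showed the same pattern and was at least 2.59-fold higher, as were CHST4, a sulfotransferase (at least 1.52-fold), SERTAD4 (at least 1.73-fold) and CDH11, a mesenchymal cadherin (at least 1.27-fold). WDR7 differed from these: it was above background on all sh-35 and all scramble arrays and on no sh-34 array, and was at least 2.60-fold higher with sh-35. In the other direction, MCCC2, a subunit of the carboxylase that breaks down leucine, was above background on all sh-34 and all scramble arrays and on no sh-35 array, and was at least 2.36-fold lower with sh-35. CST6, a cysteine protease inhibitor, was above background on the 3 sh-34 arrays and on no other array, and was at least 1.71-fold lower with sh-35. The histone gene H2BC4 was at least 2.79-fold lower with sh-35 and H2BC6 at least 1.34-fold lower.

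Of the gene lists described, cell division genes had the largest positive median difference. Of 51 tested members of a G2 and mitosis list of 52, 48 were higher with sh-35 than with sh-34, 1 was lower and 2 did not pass, against 20.7% higher over all genes. The median difference was +0.92, against −0.03 over all genes. MKI67 had a probe that was not tested. In each sample, the median level of the list relative to each gene's scramble mean was 1.27, 1.35 and 1.35 with sh-35, 0.35, 0.30 and 0.30 with sh-34, and 0.06, −0.07 and 0.02 with scramble. The sh-35 samples were highest, the sh-34 samples intermediate, and no sample of 1 group overlapped another group. The dividing fraction of the cells and the RNA per dividing cell cannot be told apart in such bulk samples.

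The members span the steps of division. KIF4A, a chromosome-associated motor, read 8.41, 8.64 and 8.62 with sh-35, 6.99, 6.68 and 6.84 with sh-34, and 7.30, 7.33 and 6.92 with scramble. HMMR, a spindle-associated hyaluronan receptor, read 11.17, 11.18 and 11.23 with sh-35, 9.46, 9.69 and 9.47 with sh-34, and 9.26, 8.89 and 9.34 with scramble. In both genes the sh-35 samples stood clear of the others, by +1.72 and +1.65 over sh-34. CDK1, the kinase that starts mitosis, was 2.59-fold higher with sh-35 than with sh-34 (adjusted p = 1.1e-06). CENPA, the centromeric histone, was 3.01-fold higher, CENPM, a centromere protein, 2.26-fold higher, and BIRC5, or survivin, 2.36-fold higher. The exceptions were CDC25B, a phosphatase that activates CDK1, which was lower (−0.38, adjusted p = 0.0309), and AURKA (+0.21, adjusted p = 0.0623) and ESPL1 (+0.23), which did not pass. CDC25B lost its call without sh-34 replicate 1 or 3 or sh-35 replicate 2 or 3 (adjusted p 0.0646 to 0.117), and ESPL1 gained one without sh-34 replicate 1 (0.0442). AURKA passed with the replicate number as a block (0.0496), with cyclic loess (0.0459) and with an intensity trend and robust prior (0.0276).

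DNA replication genes rose to a smaller degree. Of 37 tested members of a list of 43, 31 were higher, 1 was lower and 5 did not pass, with a median of +0.56, against 20.7% higher and 22.0% lower over all genes. CDT1, which loads the replicative helicase, read 10.12, 10.05 and 9.95 with sh-35, 8.48, 8.44 and 8.41 with sh-34, and 8.43, 8.33 and 8.58 with scramble. The sh-34 and scramble samples overlapped, and sh-35 was 3.03-fold above sh-34 (adjusted p = 3.52e-07). The helicase subunits MCM2 (+0.87), MCM4 (+0.87), MCM6 (+0.84) and MCM5 (+0.82) and PCNA, the sliding clamp (+0.56), were higher. RFC5, a subunit of the clamp loader, was the 1 lower member (−0.28), while RFC2, RFC3 and RFC4 were higher (+0.98, +0.70 and +0.42). The call of RFC5 was lost without sh-34 replicate 2 (adjusted p = 0.0635) or sh-35 replicate 1 (0.0556), and with the mean of a gene's probes PCNA fell short at +0.27 (0.0598).

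Promoters of the cell division genes are shown because the list moved together and its members are known to share short elements near the start site. RefSeq promoter windows on GRCh38.p14, 250 bases before to 50 after the start, were searched on both strands for the CHR element TTTGAA, at which the DREAM complex and MYB act in G2 genes, the CCAAT box CCAAT, bound by NF-Y, and the E2F element TTTCCCGC. Promoters of 42 of the 51 G2 and mitosis genes were matched, and 30 of them (71.4%) held the CHR element and 33 (78.6%) the CCAAT box. Over all 35116 promoters the shares were 15.2% and 34.6%. The E2F element was in 10 of 34 matched DNA replication promoters (29.4%), against 1.63% of all. A match describes letters and not a bound site. The windows of KIF4A (chrX:70289854-70290153, plus strand), HMMR (chr5:163460382-163460681, plus strand) and CDT1 (chr16:88803539-88803838, plus strand) follow, with matches in capitals. They are the members with the largest differences among those that hold the elements, CHR and CCAAT for KIF4A and HMMR and E2F for CDT1.
KIF4A: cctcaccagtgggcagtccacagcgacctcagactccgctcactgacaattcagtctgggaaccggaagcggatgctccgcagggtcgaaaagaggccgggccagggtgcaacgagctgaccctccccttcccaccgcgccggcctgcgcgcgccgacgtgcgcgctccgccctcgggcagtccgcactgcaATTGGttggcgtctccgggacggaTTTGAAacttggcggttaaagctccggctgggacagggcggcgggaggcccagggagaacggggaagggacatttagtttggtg
HMMR: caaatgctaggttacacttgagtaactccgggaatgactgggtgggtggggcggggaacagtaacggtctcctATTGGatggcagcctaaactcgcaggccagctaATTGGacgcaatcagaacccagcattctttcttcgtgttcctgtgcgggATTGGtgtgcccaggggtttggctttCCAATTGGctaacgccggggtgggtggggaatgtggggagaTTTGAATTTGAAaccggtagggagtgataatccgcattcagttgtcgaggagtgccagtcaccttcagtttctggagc
CDT1: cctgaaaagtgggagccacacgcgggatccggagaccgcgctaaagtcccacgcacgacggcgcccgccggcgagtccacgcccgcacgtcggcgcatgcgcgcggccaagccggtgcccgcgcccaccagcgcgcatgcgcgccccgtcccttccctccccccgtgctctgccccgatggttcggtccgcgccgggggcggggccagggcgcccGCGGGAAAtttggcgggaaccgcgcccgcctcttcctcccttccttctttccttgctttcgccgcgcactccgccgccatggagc

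Positions are counted from the start site, with negative numbers upstream. In KIF4A the CHR match starts at −34 and a CCAAT match on the minus strand at −58. HMMR holds 2 CHR matches, at −28 and −22, and 5 CCAAT matches on either strand, 2 of which overlap. The E2F match of CDT1 starts at −35 on the minus strand.

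Regulators of the cell cycle differed as well. CCND1, or cyclin D1, read 13.50, 13.50 and 13.62 with sh-35, 12.43, 12.48 and 12.46 with sh-34, and 13.31, 13.55 and 13.49 with scramble. The sh-35 and scramble samples overlapped and the sh-34 samples were below both, so that sh-35 was 2.12-fold above sh-34 (adjusted p = 2.3e-06). CCND3, or cyclin D3, was 2.34-fold lower with sh-35 than with sh-34. LMNB1, or lamin B1, whose loss marks senescence, averaged 2.46-fold higher with sh-35, and RBL1, the p107 pocket protein, was at least 1.68-fold higher. CDKN1B, the inhibitor p27, was higher (+0.45), and CDKN1A, the inhibitor p21, did not pass (−0.12, 95% interval −0.28 to 0.04). With the mean of its probes CDKN1A passed, at −0.27 (adjusted p = 0.0163). Of 23 tested genes of the list of cyclins, inhibitors and senescence markers, 12 were higher, 3 lower and 8 not past. The shares over all genes were 20.7% higher and 22.0% lower. Of 21 tested p53 targets, 3 were higher and 3 lower, a smaller share past the threshold than the 42.7% of all genes, with a median of −0.02.

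Histone genes went the other way from the division genes. Of 16 tested members of a list of 27, 12 were lower with sh-35, 2 were higher and 2 did not pass, against 22.0% lower over all genes, and the median difference was −1.06 (−0.96 with members at their bounds). With no filter on dim probes the median over 26 genes was −0.687, with 16 lower and 2 higher. Relative to scramble the list's sample medians were 0.02, −0.08 and −0.11 with sh-35, and 0.86, 0.95 and 0.83 with sh-34. The sh-35 samples lay near the scramble samples and the sh-34 samples well above both. H4C8 read 7.50, 7.17 and 7.36 with sh-35, 9.04, 9.08 and 8.96 with sh-34, and 7.40, 7.57 and 7.32 with scramble, a 3.22-fold lower level with sh-35 than with sh-34 (adjusted p = 6.24e-07). H1-2, a linker histone, read 9.81, 9.82 and 9.69 with sh-35, 11.05, 11.10 and 11.27 with sh-34, and 9.95, 9.71 and 9.85 with scramble. For both, sh-35 and scramble samples overlapped. H2AC18 and H2AC20 differed from these, since with sh-35 they were also below scramble (−0.57 and −0.53). The higher members were H2AZ1 (+0.71), a variant histone made outside the replication-dependent clusters, and H4C3 (+0.43). Clustered histone genes are near-identical in sequence, so that their probes may share signal, and most of their mRNAs end in a stem-loop without a poly(A) tail.

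**Figure D3:**
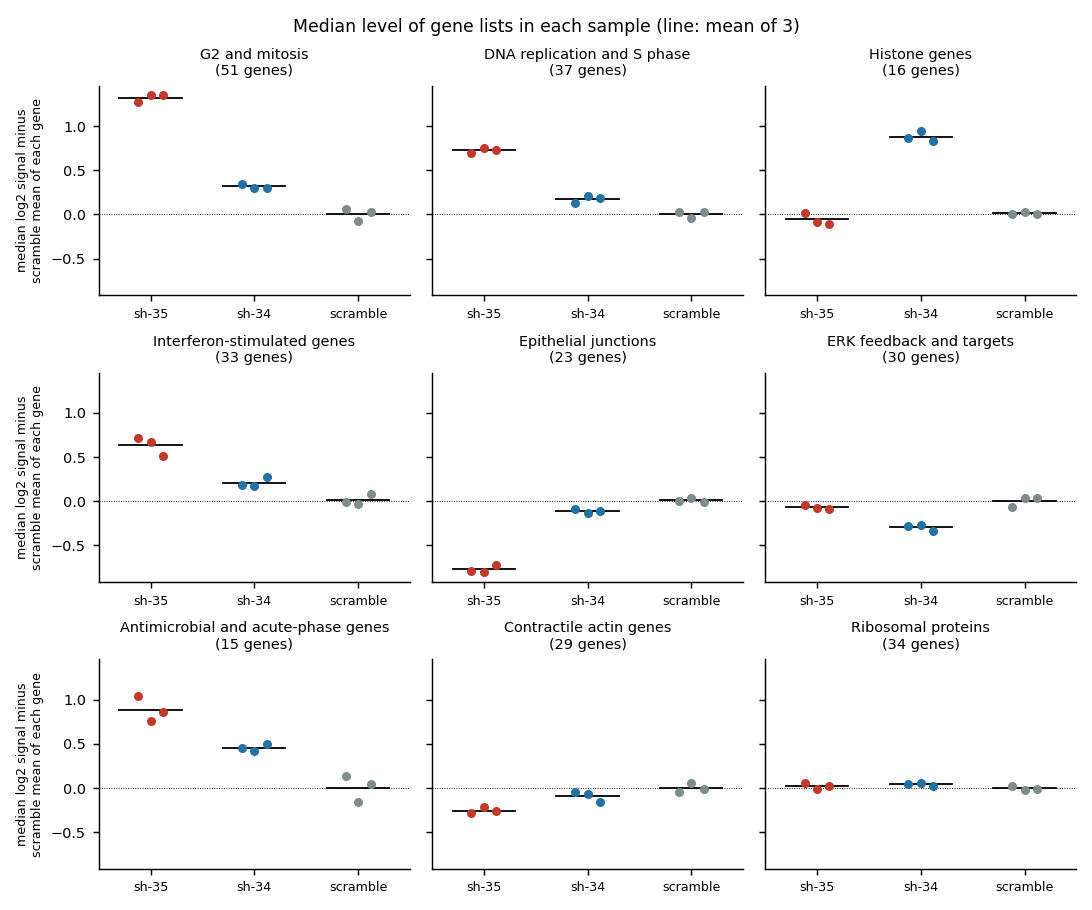
Median over the tested members of 9 gene lists of the log2 signal minus each gene's scramble mean (vertical axes, 1 common range), in each sample of sh-35, sh-34 and scramble (horizontal axes). Points are samples and lines the means of 3. The G2 and mitosis medians are 1.27 to 1.35 with sh-35 and 0.30 to 0.35 with sh-34, and the histone medians −0.11 to 0.02 with sh-35 and 0.83 to 0.95 with sh-34.

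Interferon-stimulated genes, which limit viral replication and are switched on by the ISGF3 complex, were higher with sh-35 for most measured members. Of 33 tested members of a list of 43, 23 were higher, 2 were lower and 8 did not pass, against 20.7% higher over all genes, and the median difference was +0.51. The sample medians relative to scramble were 0.72, 0.67 and 0.51 with sh-35, 0.18, 0.17 and 0.28 with sh-34, and −0.01, −0.03 and 0.09 with scramble. IFI27, a mitochondrial interferon-induced protein, read 11.88, 11.89 and 11.31 with sh-35, 9.39, 9.45 and 9.79 with sh-34, and 10.51, 10.50 and 10.89 with scramble. It was above scramble in every sh-35 sample and below scramble in every sh-34 sample, and differed 4.43-fold between the hairpins (adjusted p = 2.47e-06). IFIT3, which binds viral RNA together with IFIT1, read 8.95, 8.86 and 9.05 with sh-35, 7.26, 7.31 and 6.91 with sh-34, and 7.20, 7.24 and 7.56 with scramble. Here the sh-34 and scramble samples overlapped, and the difference was +1.79.

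The list was not uniform. IFIT1 (+1.23), IFI44 (+1.14) and PSMB9, an immunoproteasome subunit (+1.0), were higher with sh-35 than with sh-34. IFI30, a lysosomal thiol reductase, and ISG20, an exonuclease, were lower (−0.51 and −0.45). MX1 (−0.12), BST2 (+0.07), IFITM2 (−0.22) and IFITM3 (−0.20) did not pass, and the IFITM genes are near-identical copies. IFITM2 passed without sh-35 replicate 2 (adjusted p = 0.0381), with median scaling (0.0456), with an offset of 50 (0.0485) and with no background correction (0.0462). It also passed among genes above background on all 9 arrays (0.0493). With an intensity trend and robust prior both IFITM2 (0.0134) and IFITM3 (0.0245) passed. Among 18 tested genes of RNA sensing and RNA interference, 6 were higher, 3 were lower and 9 did not pass, so that 9 of 18 passed in either direction, close to the 42.7% of all genes. EIF2AK2, the kinase PKR that binds double-stranded RNA, was higher (+0.68), as were TARBP2, the partner of Dicer (+0.80), and DICER1 (+0.54). ADAR, which edits double-stranded RNA, was lower (−0.55), and RIGI, an RNA sensor, was at least 1.20-fold lower. RIGI lost its call without sh-34 replicate 3 (adjusted p = 0.0654) or sh-35 replicate 1 (0.0646). Of 15 tested genes of class I antigen presentation, 5 were higher, 2 lower and 8 not past, again close to the 42.7% of all genes. HLA-B was at +0.81. HLA genes are similar enough for their probes to share signal.

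Promoters of interferon-stimulated genes are shown for the same reason. The core of the interferon response element was searched as TTTCNNTTT on both strands. It was in 19 of 28 matched promoters (67.9%), against 10.5% of all 35116. The windows of IFI44L (chr1:78620198-78620497), IFI27 (chr14:94110486-94110785) and IFIT3 (chr10:89327747-89328046), all on the plus strand of GRCh38.p14, are the 3 with the largest differences among those with a match, and follow with matches in capitals.
IFI44L: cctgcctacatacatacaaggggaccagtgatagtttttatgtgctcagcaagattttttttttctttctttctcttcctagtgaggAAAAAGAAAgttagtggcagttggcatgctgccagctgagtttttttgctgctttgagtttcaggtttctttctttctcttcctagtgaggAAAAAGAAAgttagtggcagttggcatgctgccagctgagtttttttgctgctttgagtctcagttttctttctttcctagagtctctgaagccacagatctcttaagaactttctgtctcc
IFI27: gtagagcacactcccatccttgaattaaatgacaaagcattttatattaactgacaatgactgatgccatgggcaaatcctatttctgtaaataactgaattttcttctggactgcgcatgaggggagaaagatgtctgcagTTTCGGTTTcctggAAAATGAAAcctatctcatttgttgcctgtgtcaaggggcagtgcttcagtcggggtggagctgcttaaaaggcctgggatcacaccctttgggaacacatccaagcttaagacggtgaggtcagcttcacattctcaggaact
IFIT3: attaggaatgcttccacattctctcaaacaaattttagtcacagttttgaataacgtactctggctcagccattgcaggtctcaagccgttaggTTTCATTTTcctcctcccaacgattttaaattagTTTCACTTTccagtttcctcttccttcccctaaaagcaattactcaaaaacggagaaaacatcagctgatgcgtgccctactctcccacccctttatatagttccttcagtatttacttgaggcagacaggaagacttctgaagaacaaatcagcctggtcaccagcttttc

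Each of the 3 windows holds 2 matches. They start at −163 and −72 in IFI44L, both on the minus strand, at −108 and −94 in IFI27 on opposite strands, and at −156 and −122 in IFIT3, both on the plus strand.

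Genes of epithelial junctions were lower with sh-35. Of 23 tested members of a list of 39, 16 were lower, 2 were higher and 5 did not pass, with a median of −0.44, against 22.0% lower over all genes. With no filter on dim probes the median over 36 genes was −0.207, with 13 lower and 2 higher. CDH1, or E-cadherin, the adhesion protein of adherens junctions, read 9.62, 9.80 and 9.81 with sh-35, 10.96, 10.80 and 10.74 with sh-34, and 11.60, 11.65 and 11.54 with scramble. Both hairpins were below scramble without overlap, and sh-35 was a further 2.13-fold below sh-34 (adjusted p = 2.92e-06). EPCAM, an epithelial adhesion molecule, read 8.70, 8.75 and 8.75 with sh-35, 10.16, 10.17 and 9.98 with sh-34, and 10.63, 10.69 and 10.53 with scramble, in the same order. CRB3, a polarity protein (−1.30), ST14, the protease matriptase (−1.27), JUP, or plakoglobin (−0.99), and CDH3, or P-cadherin (−0.88), were lower with sh-35 than with sh-34. RAB25, a GTPase of epithelial recycling, was at least 1.49-fold lower. The higher members were the desmosomal cadherins DSC2 (+0.52) and DSC3 (+0.33), and DSG2 and DSG3 were lower (−0.30 and −0.56). CTNNB1 (−0.19), CTNNA1 (−0.10), TJP1 (−0.09), CLDN1 (+0.07) and PRSS8 (+0.18) did not pass. Without sh-35 replicate 3, DSC3 and DSG2 lost their calls (adjusted p 0.0506 and 0.0873), as did DSG2 without sh-34 replicate 2 (0.0922) or sh-35 replicate 2 (0.068), whereas CTNNB1 passed without sh-34 replicate 3 (0.0169). For DSC2, sh-35 was at −0.70 and sh-34 at −1.22 from scramble.

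Mesenchymal genes did not move as a block. Of 16 tested members of a list of 28, 5 were higher, 2 were lower and 9 did not pass, with a median of +0.17, against 20.7% higher and 22.0% lower over all genes. With no filter on dim probes the median over 27 genes was +0.065, with 7 higher and 2 lower. SERPINE2, a protease inhibitor (+1.06), FN1, or fibronectin (+0.80), and AXL, a receptor tyrosine kinase (+0.63), were higher with sh-35. FOXC2, a transcription factor above background on no sh-34 array, was at least 2.01-fold higher. CDH11 is also counted as higher, but it passed the filter only through the sh-35 arrays, so its call is no further support. SPARC and S100A4 were lower (−0.56 and −0.35). The intervals of CDH2, or N-cadherin (−0.02, 95% interval −0.22 to 0.17), VIM, or vimentin (−0.13, −0.32 to 0.05), and SNAI2, or Slug (+0.14, −0.10 to 0.37), held 0. TWIST1 averaged +0.20 with an interval from 0.01 to 0.39, and its limma adjusted p was 0.0785. SNAI1 and ZEB1 were below background on all 9 arrays. VIM had a further probe of opposite sign.

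Among 21 tested matrix genes, 12 were higher with sh-35, 1 was lower and 8 did not pass, against 20.7% higher and 22.0% lower over all genes. LOX, or lysyl oxidase, which cross-links collagen, read 9.35, 9.54 and 9.40 with sh-35, 7.92, 7.98 and 8.11 with sh-34, and 7.26, 7.26 and 7.01 with scramble. Both hairpins were above scramble, and sh-35 was 2.69-fold above sh-34 (adjusted p = 1e-06). ECM1 (+1.40), THBS1, or thrombospondin 1 (+0.94), EFEMP1 (+0.91), DCN, or decorin (+0.90), and TIMP3 (+0.72) were higher with sh-35, and COL8A1 was lower (−0.60). LOXL1, LOXL2, LOXL3 and LOXL4 had probes that were not tested. Of 14 tested hemidesmosome and integrin genes, 4 were higher, 3 lower and 7 not past, against 42.7% past the threshold over all genes. ITGA5, the fibronectin receptor chain, was higher (+1.13), at −0.20 from scramble with sh-35 and −1.33 with sh-34, and ITGB4, the hemidesmosome integrin, was lower (−0.74).

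Genes of contractile actin were led by TAGLN. Of 29 tested, 10 were lower, 2 were higher and 17 did not pass, with a median of −0.19. The share past the threshold was close to the 42.7% of all genes, of which 22.0% were lower and 20.7% higher. MYL9, a myosin regulatory chain, was above background on all 6 sh-34 and scramble arrays and on no sh-35 array, and was at least 1.54-fold lower with sh-35. TPM2, or beta-tropomyosin (−0.61), CNN3, or calponin 3 (−0.58), ZYX, or zyxin (−0.54), ACTA2, or smooth muscle actin (−0.48), and SRF, the transcription factor of actin genes (−0.46), were lower. ACTA2 was above scramble with both hairpins, by +0.24 with sh-35 and +0.73 with sh-34. ACTB and ACTG1, the cytoplasmic actins, did not pass (+0.02 and +0.04, turning to −0.084 and −0.036 with median scaling). PDLIM7 (+0.48) and MYH10 (+0.30) were higher. With the mean of a gene's probes PDLIM7 was at +0.088 and did not pass (adjusted p = 0.474), and MYH10 did not pass without sh-34 replicate 1 (0.0559).

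Plexins and semaphorins, which act beside RND1, were measured in part. PLXNA3, a plexin, read 7.26, 7.37 and 7.37 with sh-35, 8.61, 8.61 and 8.35 with sh-34, and 7.92, 8.41 and 8.14 with scramble, so that the sh-35 samples lay below both other groups, which overlapped. PLXNA1 (−0.58) and PLXNA2 (−0.44), further plexins, and RAC1, a small GTPase of actin protrusions (−0.38), were lower as well. SEMA4D, a plexin B ligand (+0.59), and NRP1, a semaphorin co-receptor (+0.42), were higher. PLXNB1 did not pass (−0.26, adjusted p = 0.0887), though it did without sh-34 replicate 3 (0.027). Of 13 tested Ras and Rap genes, 4 were lower, 0 were higher and 9 did not pass, a smaller share past the threshold than the 42.7% of all genes. The lower ones were RAP1B (−0.66), SOS1 (−0.60), RRAS (−0.49) and RALA (−0.25). SOS1 lost its call without scramble replicate 1 or 2, sh-34 replicate 1 or 2, or sh-35 replicate 1 or 3 (adjusted p 0.0574 to 0.183), and RALA without sh-34 replicate 2 or 3 or sh-35 replicate 2 or 3 (0.0505 to 0.108). RRAS, a Ras relative on which plexins act, read between 10.98 and 11.08 with sh-35, 11.59, 11.44 and 11.49 with sh-34, and 11.05, 11.25 and 11.09 with scramble. The sh-35 and scramble samples of RRAS overlapped, and the sh-34 samples lay above both.

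Of 30 tested targets of the ERK kinase pathway, 15 were higher with sh-35, 4 were lower and 11 did not pass, against 20.7% higher and 22.0% lower over all genes, and the median was +0.29. Relative to scramble the list's sample medians were −0.04, −0.08 and −0.09 with sh-35, and −0.28, −0.27 and −0.34 with sh-34. VEGFA, a vascular growth factor, read 8.51, 8.53 and 8.65 with sh-35, 7.33, 7.31 and 7.59 with sh-34, and 8.23, 8.70 and 8.35 with scramble. The sh-34 samples were below both other groups, which overlapped. ETV4 (+0.70), SPRY4 (+0.57), SPRY2 (+0.49), DUSP5 (+0.49), ETV5 (+0.34) and FOSL1 (+0.28), feedback inhibitors and transcription factors of the pathway, were higher. EGR1, an immediate early transcription factor, was lower (−1.0), at −0.62 from scramble with sh-35 and +0.38 with sh-34. SPRY1 (−0.41), DUSP1 (−0.34) and PHLDA1 (−0.27) were lower too, and DUSP6 did not pass (+0.05, 95% interval −0.16 to 0.26). The call of FOSL1 was lost without sh-34 replicate 2 or 3 or sh-35 replicate 2 (adjusted p 0.0585 to 0.122), that of SPRY1 without sh-34 replicate 2 or 3 or sh-35 replicate 1 or 2 (0.0869 to 0.125), and that of PHLDA1 without scramble replicate 3, any sh-34 sample, or sh-35 replicate 1 or 3 (0.0509 to 0.139). Of 11 tested EGF receptor family genes, 3 were higher and 3 lower, against the same 20.7% and 22.0% over all genes. EGFR (+0.50), the ligand TGFA (+0.68) and the sheddase ADAM10 (+0.27) were higher. A further EGFR probe, dimmer but above background on all 9 arrays, gave +0.14 and did not pass (limma adjusted p over all probes 0.515). ERBB2 (−0.53), the ligand HBEGF (−0.80) and the ligand NRG1, at least 1.54-fold, were lower. ADAM10 did not pass without sh-34 replicate 3 (adjusted p = 0.0737) or sh-35 replicate 3 (0.0794).

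**Figure D4:**
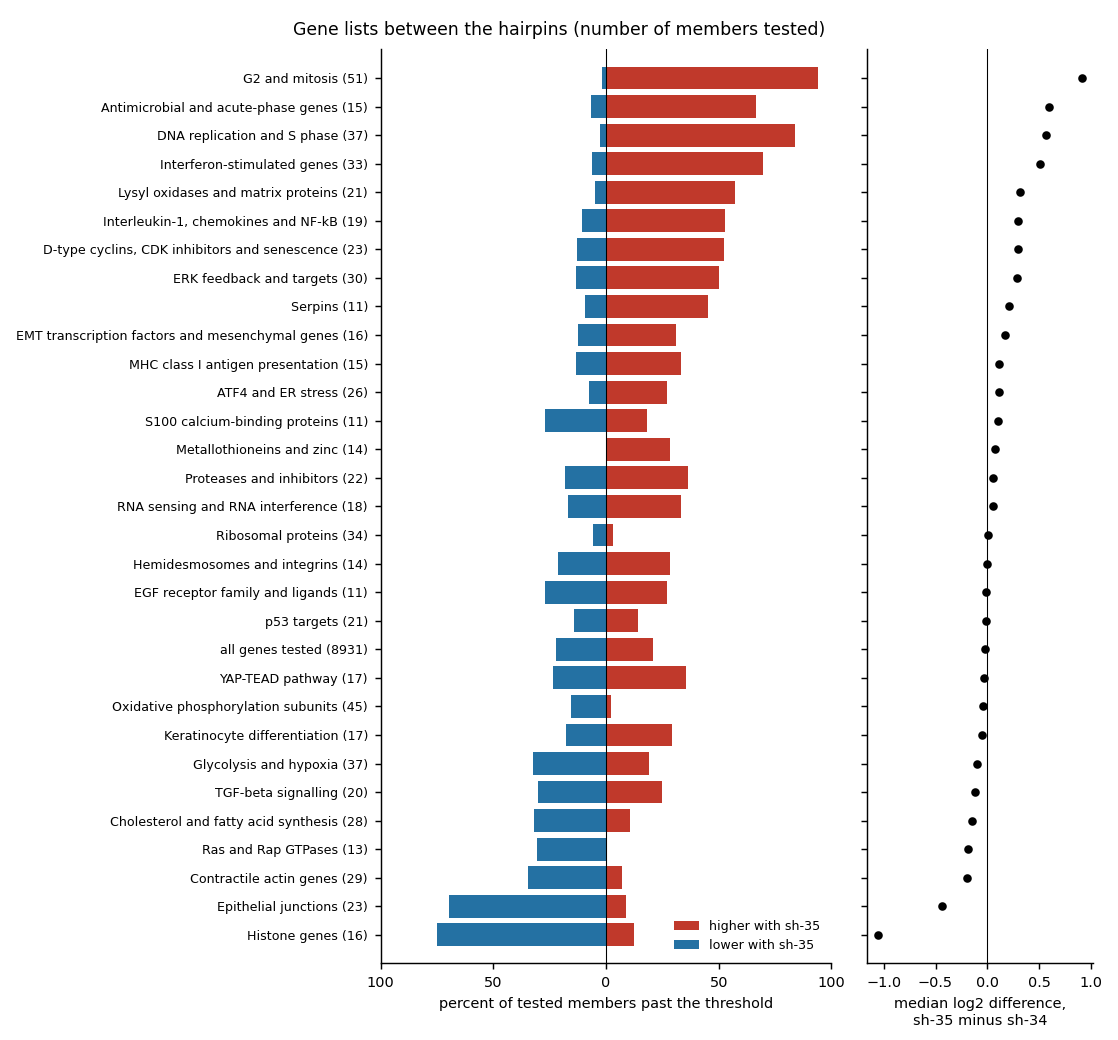
Gene lists described in the text ordered by their median log2 difference, sh-35 minus sh-34, with the number of members tested in brackets. Bars on the left panel give the percent of tested members higher (red, to the right) and lower (blue, to the left) with sh-35 at an adjusted p under 0.05, and points on the right panel give the list median. G2 and mitosis stands at the top with +0.92 and the histone genes at the bottom with −1.06, with all 8931 genes at −0.03.

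Genes of inflammation and epithelial defence differed between the hairpins. Of 15 tested antimicrobial and acute-phase genes of a list of 27, 10 were higher with sh-35, 1 was lower and 4 did not pass. That stood against 20.7% higher and 22.0% lower over all genes, and the list's median was +0.59. PI3, or elafin, an elastase inhibitor, read 10.90, 10.96 and 10.83 with sh-35, 9.46, 9.23 and 9.19 with sh-34, and 10.32, 10.09 and 10.16 with scramble. It was above scramble with sh-35 and below scramble with sh-34, as was SLPI, a related inhibitor, with +1.03 between the hairpins. SERPINA3, or antichymotrypsin, read 12.18, 12.05 and 11.92 with sh-35, 10.37, 10.34 and 10.52 with sh-34, and 9.99, 9.72 and 9.78 with scramble, above scramble with both hairpins. SAA2 (+1.05) and SAA1 (+0.34), acute-phase proteins of near-identical sequence, and CFB, or complement factor B (+0.89), were higher. SAA1 lost its call without any 1 of the sh-34 samples or without sh-35 replicate 1 or 3 (adjusted p 0.0574 to 0.0971). C3 (+0.08), LCN2 (+0.16) and CD14 (−0.14) did not pass. With no filter on dim probes the list's median over 26 genes was +0.102, with 8 higher and 1 lower.

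Of 19 tested interleukin-1, chemokine and NF-kB genes, 10 were higher with sh-35, 2 were lower and 7 did not pass. That stood against 20.7% higher and 22.0% lower over all genes. The list's median was +0.30 (+0.17 with members at their bounds), and +0.165 over 37 genes with no filter on dim probes. CSF3, the granulocyte growth factor, read 9.64, 9.48 and 9.53 with sh-35, 8.11, 8.21 and 8.03 with sh-34, and 9.17, 9.01 and 9.40 with scramble. CXCL1, a neutrophil chemokine, was 2.26-fold higher with sh-35 than with sh-34, and CCL20 and CXCL8 were higher by +0.69 and +0.54. CCL20 was above scramble with sh-35 (+0.39) and below it with sh-34 (−0.30). IL1B, or interleukin-1 beta, read 10.12, 9.75 and 9.96 with sh-35, 9.63, 9.61 and 9.57 with sh-34, and 12.23, 12.31 and 12.43 with scramble. Its difference between the hairpins, +0.34 (adjusted p = 0.0177), was small beside its distance from scramble with either hairpin. IL1A did not pass (+0.12). NFKBIE and RELB were lower (−0.58 and −0.36). IL1B did not pass without sh-34 replicate 3 (adjusted p = 0.0534) or sh-35 replicate 1 (0.0703), nor RELB without sh-34 replicate 2 (0.083) or sh-35 replicate 1 (0.0517) or 2 (0.0697).

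Several enzyme and secreted protein families held members with large differences. The counts of members in this paragraph stand beside 20.7% higher and 22.0% lower over all genes. CTSB and CTSV, or cathepsins B and V, were higher with sh-35 (+1.01 and +1.13), and 8 of 22 tested proteases and inhibitors were higher and 4 lower. SERPINA5, the protein C inhibitor, was above background on 3 sh-35, 2 sh-34 and 0 scramble arrays, and its difference was +1.91. Of 11 tested serpins, 5 were higher and 1 lower. TGFB2, a TGF-beta ligand, was at least 2.0-fold higher with sh-35. LTBP3, which binds latent TGF-beta, was lower (−1.40), and 5 of 20 tested TGF-beta signalling genes were higher and 6 lower. The YAP-TEAD list, which shares TGFB2 and AXL with other lists, had 6 of 17 tested genes higher and 4 lower. KRT80, a keratin of differentiating epithelia, was higher (+1.57). TGM1, a transglutaminase of the cornified envelope, was lower (−0.60), and 5 of 17 tested keratinocyte differentiation genes were higher and 3 lower.

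Metabolic lists held members that went both ways. Each count in this paragraph stands beside 20.7% higher and 22.0% lower over all genes. NDUFB8, a subunit of respiratory complex I, read 11.62, 11.75 and 11.77 with sh-35, 13.17, 13.10 and 13.26 with sh-34, and 13.01, 12.88 and 12.96 with scramble, 2.75-fold lower with sh-35 than with sh-34 (adjusted p = 4.33e-07). Of the 45 tested oxidative phosphorylation subunits, 7 were lower and 1 was higher, a smaller share past the threshold than the 42.7% of all genes. Their median was −0.05. PHGDH, the first enzyme of serine synthesis, read 12.01, 12.19 and 12.15 with sh-35, 10.66, 10.64 and 10.59 with sh-34, and 10.67, 10.31 and 10.41 with scramble. SHMT2, a mitochondrial serine hydroxymethyltransferase, was higher (+1.16), as was SLC7A1, a transporter of cationic amino acids (+1.03). The ATF4 and ER stress list had 7 of 26 tested genes higher and 2 lower, and ATF4 did not pass (+0.11). Of 37 tested glycolysis and hypoxia genes, 7 were higher and 12 lower, against 20.7% higher and 22.0% lower over all genes, with CA12, a carbonic anhydrase, at +1.41 and BNIP3L, a mitophagy receptor, at −1.35. Of 28 tested cholesterol and fatty acid genes, 3 were higher and 9 lower, with ACLY at +0.64 and SCD at −0.64. Of 14 tested metallothionein and zinc genes, 4 were higher and 0 lower. Of 34 tested ribosomal protein genes, 1 was higher and 2 lower, also a smaller share than over all genes, with a median of +0.01. RPL37 was the outlying member, at −1.17.

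**Figure D5:**
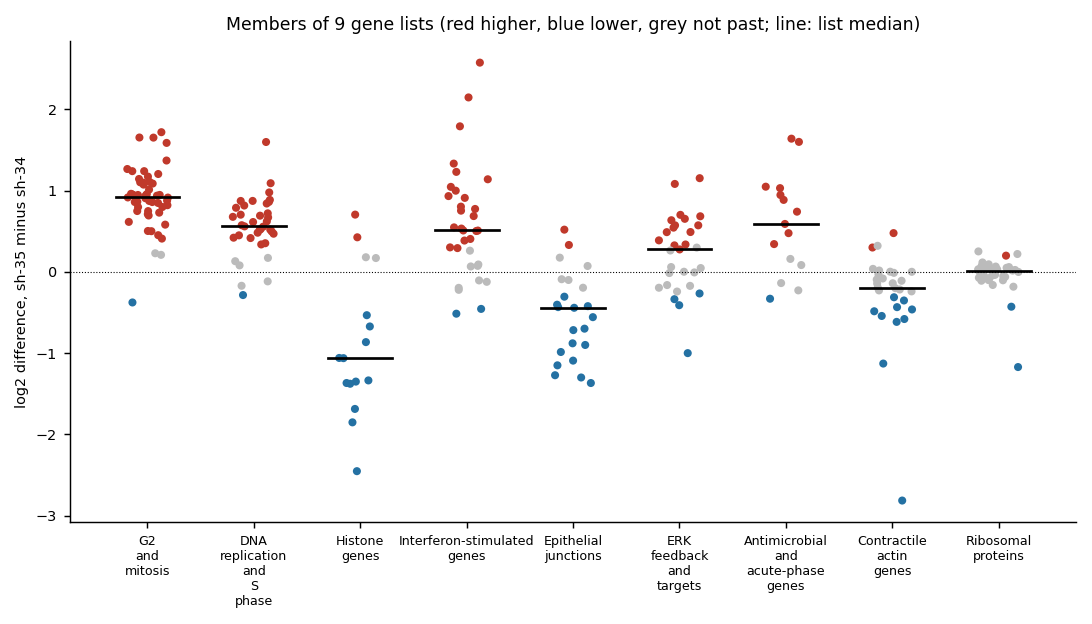
Log2 difference, sh-35 minus sh-34 (vertical axis), of each tested member of 9 gene lists (horizontal axis). Points are genes, red where higher and blue where lower at an adjusted p under 0.05 and grey otherwise, and lines are list medians. Histone members reach from −2.45 to +0.71, and ribosomal protein members, with 31 of 34 not past the threshold, from −1.17 to +0.25.

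Some genes lay above scramble with 1 hairpin and below it with the other. Besides S100A8, S100A9, IFI27, GXYLT1 and TRAK2, those above scramble with sh-35 and below it with sh-34 included SLC39A8, a zinc and manganese transporter, which read 10.46, 10.44 and 10.17 with sh-35, 8.77, 8.66 and 8.98 with sh-34, and 9.68, 9.47 and 9.63 with scramble. LTB, or lymphotoxin beta, had the opposite order and read 7.51, 7.39 and 7.45 with sh-35, 9.07, 9.04 and 9.08 with sh-34, and 8.16, 8.13 and 8.20 with scramble. No sample of LTB overlapped another group, and the difference between hairpins was −1.61 ± 0.07. The genes of this paragraph were chosen by opposite changes from scramble, so a difference between the hairpins follows from the choice. TNRC6B, a partner of Argonaute in silencing by small RNAs, was −1.23 between the hairpins, at −0.58 from scramble with sh-35 and +0.65 with sh-34. DENND11, CLIC3, a chloride channel protein, and SYNE2, a nuclear envelope protein, followed with −1.56, −1.16 and −1.20.

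Other genes changed with both hairpins to a degree that the comparison did not separate. Of the genes above background on all 9 arrays, 35 had a mean of both hairpins at least 2-fold from scramble and no call between the hairpins. CD14, a co-receptor for bacterial lipopolysaccharide, read 9.63, 9.76 and 9.61 with sh-35, 9.84, 9.87 and 9.71 with sh-34, and 8.04, 7.94 and 7.99 with scramble. The 95% interval of its difference, −0.31 to 0.04, excludes a difference of 2-fold. MAOA, a monoamine oxidase (−0.15, −0.43 to 0.14), DYNLRB1, a dynein chain (+0.09, −0.10 to 0.28), and SCNN1G, a sodium channel subunit (−0.28, −0.55 to −0.01), were above scramble with both hairpins. PRSS8, the protease prostasin, read 9.36, 9.20 and 9.24 with sh-35, 9.22, 9.05 and 9.0 with sh-34, and 10.54, 10.82 and 10.54 with scramble, and its interval ran from −0.04 to 0.40. FOLR3 (+0.25, −0.03 to 0.53) and RAB22A (+0.08, −0.15 to 0.32) were below scramble with both hairpins. SCNN1G passed between the hairpins with the mean of its probes (−0.27, adjusted p = 0.0366) and with an intensity trend and robust prior (0.0221), and FOLR3 passed without sh-34 replicate 1 (adjusted p = 0.0424). A p that missed the threshold does not show that the hairpins acted alike on these genes.

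Marker lists were used to set the cells beside their label. Of 16 basal mammary markers, 10 were tested, with 4 higher and 4 lower with sh-35. For these and the luminal markers below, the shares over all genes were 20.7% higher and 22.0% lower. KRT5, a basal keratin, averaged 12.97 ± 0.05 with sh-35, 12.59 ± 0.05 with sh-34 and 13.01 ± 0.10 with scramble (SD, n = 3 each). KRT14, its partner, averaged 11.41 ± 0.03 with sh-35, 10.65 ± 0.01 with sh-34 and 12.49 ± 0.05 with scramble (SD, n = 3 each). Both were higher with sh-35 than with sh-34, by +0.38 and +0.76, as were ITGA6 (+0.52) and EGFR (+0.50 at its brightest probe). CDH3 (−0.88), ITGB4 (−0.74), ACTA2 (−0.48) and TRIM29 (−0.35) were lower. Of 22 luminal markers, 10 were tested, with 2 higher and 3 lower. KRT15 (+0.67) and ALDH1A3 (+0.39) were higher, and KRT8 (−0.57), FOXA1 (−0.46) and KRT7 (−0.41) were lower. FOXA1 lost its call without any 1 of the sh-34 samples or without sh-35 replicate 1 or 3 (adjusted p 0.0512 to 0.121), and KRT7 without sh-34 replicate 1 or 2 or sh-35 replicate 2 (0.0786 to 0.124). The fibroblast collagens COL1A1, COL1A2 and COL3A1, the blood cell marker PTPRC and the endothelial markers CDH5 and VWF had probes that were not above background on 3 or more arrays. Of 10 fibroblast markers, 3 were tested: DCN was higher (+0.90), FAP lower (−0.61), and PDGFRA did not pass (95% interval −0.24 to 0.23). PECAM1, the 1 endothelial marker tested, did not pass (+0.17). Of the blood cell markers, CD68, also a lysosomal protein of other cells, was higher with sh-35 (+0.64), and HBB, a globin, did not pass (−0.11). The part of these markers in the results was not tested.

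The authors' deposited table lists 358 probes with a ratio of each hairpin to scramble. Of the 340 of these that were tested here, 80 were higher with sh-35 than with sh-34, 72 were lower and 188 did not pass (44.7% past the threshold, against 42.7% of all genes). The quotient of the authors' ratios in the authors' deposited table, sh-35 over sh-34, was highest for GXYLT1 (4.87), TRAK2 (3.93) and SERPINA5 (3.34). In the authors' deposited table it was lowest for TAGLN (0.153), H2BC6 (0.369) and LTB (0.385).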

How the data were processed

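RNA of 9 MCF10A samples was isolated with Trizol and biotin-labelled as cRNA for Illumina bead arrays, per the labels' protocols. BeadStudio and Partek appear in the submitters' processing notes without versions. The deposited signal table holds an intensity and a detection p-value for each probe and sample, per the file headers. The intensities had not been quantile normalized, as their medians per array ran from 46.6 to 53.4. The values of the deposited series matrix are log2 intensities less each probe's median plus 5.62, and served as an alternative. The authors' deposited table gives a ratio and fold of each hairpin over scramble, with a p-value. The ratios were recomputed from the intensities with a largest relative departure of 3.43e-06. The score of the authors' analysis of variance in that deposited table was not used here.

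Intensities were background corrected with limma's normal-exponential model on the detection p-values (offset 16), quantile normalized and taken to log2 (R 4.3.3, limma 3.58.1). Probes with a detection p under 0.01 on at least 3 of the 9 arrays were kept, and the probe with the highest mean stood for its gene. Of the 48803 probes, 28098 had 1 gene symbol in the array's annotation, 13 had several and 20692 were not listed. A single limma model of the 3 groups used all 9 samples (6 residual and 5.42 prior degrees of freedom), with Benjamini-Hochberg adjustment over 8931 genes at 0.05. No pairing was used: deviations of equally numbered sh-35 and sh-34 samples correlated by −0.024, 0.00247 and −0.0191. An "at least" fold stands where a group was above background on no array. It sets the brighter group's mean against the lowest log2 signal called above background on each dim array. The exact permutation test planned for RND1 was not made because its probe was below background. The fit was tested on simulated data.

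The members and lists were chosen with earlier results of these data known. Gene lists were counted and not tested as sets, and 1 list is not reported here. Named genes followed a rule: the RND genes, the 12 largest differences in each direction, up to 6 in each direction seen with 1 hairpin, 6 in each orientation with opposite changes from scramble, the up to 6 most significant members per list, chosen adhesion, mesenchymal, cyclin and ERK genes, 5 shared changes in each direction, 5 at each end of the authors' ratios and those next to the threshold. Further list members were named after their values were seen. Not every gene the rule allows is named. Promoter sequences are from RefSeq on GRCh38.p14, while no deposited table names a genome build.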

Additional observations from a re-analysis of the deposited data

Results flagged for a closer look

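The 12 genes below were marked because sh-35 and sh-34 changed from scramble in opposite directions, with both changes past the threshold. They are 6 of each orientation and not all such genes. Among genes above background on every array, opposite calls were made for 118 genes higher with sh-35 and lower with sh-34. The reverse order was called for 114 genes. Genes dim on any array were not counted. Over all 8931 genes tested, 41.8% were called for sh-35 against scramble and 37.5% for sh-34 against scramble. The differences between the hairpins below come from the same fit. They follow from the choice of genes and are no further support. S100A8 differed by +2.62, GXYLT1 by +2.40, IFI27 by +2.15, TRAK2 by +2.05, S100A9 by +1.72 and SLC39A8 by +1.56, all higher with sh-35 and lower with sh-34 than scramble. LTB differed by −1.61, DENND11 by −1.56, H2AC18 by −1.38, TNRC6B by −1.23, SYNE2 by −1.20 and CLIC3 by −1.16, all lower with sh-35 and higher with sh-34 than scramble.

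Probes without a single gene symbol lay outside the gene comparison. Of 1565 such probes tested, 246 were higher and 276 were lower with sh-35 (33.4%). That was a smaller share than the 42.7% called among the 8931 genes. The probe ILMN_1661861 averaged 9.90 with sh-35, 7.71 with sh-34 and 8.64 with scramble, a difference of +2.19. The probe ILMN_1686811 averaged 8.22 with sh-35, 11.22 with sh-34 and 11.07 with scramble, a difference of −3.00, larger than that of TAGLN. Both are unnamed here. Groups of 3 samples are too small for a test of outlying samples.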

How the results depend on the processing

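The direction and side of the threshold of 256 genes were followed under 20 alternatives, which gave 5085 values, of which 4895 kept both. Of 217 genes called, 193 never lost the call or changed sign, and 24 lost it under some alternative; the cause was not tested. These included ADAM10, C2CD5, CAPN2, CDC25B, DSC3, DSG2, FOSL1, FOXA1, IL1B, KRT7, MYH10, PCNA, PDLIM7, PHLDA1, RALA, RELB, RFC5, RIGI, S100A3, SAA1, SOS1, SPRY1 and TRIM29. A call was gained under some alternative by 13 genes. The sign of 8 genes with no call turned. ACTB turned to −0.0837 and ACTG1 to −0.0356 with median scaling, and ACTB to −0.0464 with the series matrix values and −0.0549 with the mean of a gene's probes. DUSP6 turned to −0.0493 with the mean of a gene's probes, and LINC01451 to 0.00573 with the series matrix values. PDGFRA turned to 0.0239 with cyclic loess, 0.0414 with median scaling and 0.0964 with the series matrix values. Without 1 sample in turn, ACTB ran from −0.00271 to 0.0310 (below 0 without sh-34 replicate 1), ACTG1 from −0.0740 to 0.115 (below 0 without sh-34 replicate 3) and CLDN1 from −0.0276 to 0.140 (below 0 without sh-35 replicate 2). PDGFRA ran from −0.0776 to 0.0900 (above 0 without sh-34 replicate 3 or sh-35 replicate 2), C1orf74 from −0.0406 to 0.193 (lowest without sh-34 replicate 1), CDH2 from −0.0687 to 0.0231 (above 0 without sh-34 replicate 2 or sh-35 replicate 3), DUSP6 from −0.0203 to 0.103 (below 0 without sh-34 replicate 2 or sh-35 replicate 2) and LINC01451 from −0.157 to 0.0625 (above 0 without sh-34 replicate 2). Counts moved by over 1.5 times in 4 cases, whose cause was not tested. Genes called lower numbered 1200 with the series matrix values, against 1962. Genes at least 2-fold higher numbered 163 with no background correction and 163 among genes above background on all 9 arrays, against 248. Genes at least 2-fold lower numbered 79 with the series matrix values, against 125. Without 1 sample in turn, 3227 to 3821 genes were called, 1596 to 1863 higher and 1607 to 1958 lower, and 242 to 257 were at least 2-fold higher and 125 to 138 at least 2-fold lower. The samples share only a number, and with the replicate number as a replicate block 3770 genes were called, 1833 higher and 1937 lower. With all samples of a fit kept, list medians over the processing settings ran from 0.861 to 0.944 for G2 and mitosis and 0.484 to 0.539 for interferon-stimulated genes. They ran from −0.464 to −0.207 for epithelial junctions and −1.06 to −0.687 for histone genes, these 2 nearest 0 with no filter on dim probes. Without 1 sample in turn, the medians of the 4 lists, in that order, ran from 0.894 to 0.935, 0.469 to 0.559, −0.503 to −0.425 and −1.09 to −1.03. Signal over background limits what the arrays show, since RND1 was not above it.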
